A study of Mus musculus with 30 samples.

Results

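Collagens, taken by symbol, and 4 matrix genes picked for being higher with the drug mixture MDB were followed across 30 mouse retina libraries. The members were the 44 protein-coding genes whose symbols have the collagen form (Col, a number, a, a number), together with Spon2, Ltbp2, Islr and Sned1, which makes 48 of the 42439 genes in the deposited count tables. The rule rests on a measured contrast, MDB against light in the mixture experiment, so that contrast and every contrast sharing its libraries are given as description, without a test.

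Every mouse was an Abca4-/-Rdh8-/- double knockout on a C57BL/6J background, male or female, aged 4 to 6 weeks and kept in a 12 h light cycle at no more than 10 lux. In the mixture experiment the groups were MDB (metoprolol, doxazosin and bromocriptine, then bright light), BMT (bromocriptine, metoprolol and tamsulosin, then bright light), light (the vehicle DMSO, then bright light) and no light (DMSO, no bright light). In the single-drug experiment bright light followed BRM (bromocriptine, a dopamine receptor agonist), MTP (metoprolol, a beta adrenergic receptor blocker), TAM (tamsulosin) or DOX (doxazosin), the last pair being alpha-1 adrenergic receptor blockers. Light and no light groups of the same kind stood beside them. Injections were given 30 min before 10000 lux of white light lasting 30 min. The tissue, labelled neural retina, was taken 24 h after the light, and each of the 10 groups had 3 libraries. No group received a drug without light. Both enzymes are missing in all cells of every group, the controls included. Abca4 moves retinoids out of photoreceptor discs and Rdh8 reduces all-trans-retinal. Without them retinal accumulates after bright light and photoreceptors degenerate. The labels do not say whether the libraries of a group came from separate animals, so the p-values measure the spread between these libraries only. Total gene counts ran from 18481054 to 25808588 in the mixture experiment and from 12021738 (TAM replicate 1) to 22183625 in the single-drug experiment.

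Collagens are triple-helical secreted proteins. Type IV collagen forms the network of basement membranes, and in the eye it builds the inner limiting membrane of the retina, the vessel basement membranes and the thick lens capsule. Types II, IX and XI form the fibrils of the vitreous, and the ciliary epithelium at the retinal margin is a known source of vitreous proteins. Type VI forms beaded microfilaments around basement membranes, type VIII a network in the membranes under corneal endothelium and pigment epithelium, and types XV and XVIII carry heparan or chondroitin sulfate chains at basement membranes.

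The libraries differed in lens fibre RNA. A lens index, the mean log2 CPM (counts scaled to the same library size for all libraries) of the lens fibre genes Mip, Lim2 and Bfsp2, lay between 6.29 and 8.73 in 16 libraries and between -0.54 and 4.12 in the other 14, with none in between. It was 8.04, 7.54 and 7.67 in MDB, 3.36, 7.48 and -0.54 in BMT, 1.78, 2.49 and 6.4 in light and 1.76, 8.73 and 1.82 in no light libraries of the mixture experiment. In the single-drug experiment it was 7.56, 7.11 and 8.72 in BRM, 1.33, 7.74 and 1.48 in MTP, 7.57, 3.74 and 4.12 in TAM, 3.09, 8.47 and 2.85 in DOX, 6.57, 6.48 and 6.29 in light and 7.55, 3.9 and 3.56 in no light. High values were thus found in both treated and control mice: MDB, BRM and single-drug light held them in all 3 libraries, and each of the remaining 7 groups in exactly 1.

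The deposited tables measure whole tissue, and fewer cells of a type cannot be told apart from less RNA per cell. Gnat1, Nrl and Pde6b, markers of rod photoreceptors, had summed levels of 16000 to 18600 CPM in MDB and 10200 to 12200 CPM in light libraries of the mixture experiment. The lens epithelium markers Foxe3 and Pitx3 had no count in 12 and 9 of the 30 libraries.

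Promoters are shown as the 250 bases before and 50 bases after the RefSeq transcription start in GRCm38.p6. Col4a1, Col4a2, Ltbp2, Islr and Sned1 were higher in every MDB library than in every light library of the mixture experiment. Col25a1 was lower in every MDB library. Col4a1 (chr8:11312777-11313076, minus strand) and Col4a2 (chr8:11312555-11312854, plus strand) are transcribed away from each other, and their annotated 5′ ends overlap by 22 bases. The windows of Ltbp2 (chr12:84876442-84876741, minus strand), Islr (chr9:58158505-58158804, minus strand) and Sned1 (chr1:93235647-93235946, plus strand) belong to genes named in the rule, and that of Col25a1 is chr3:130180595-130180894 on the plus strand. Capitals mark matches, on either strand, to the TATA box letters TATAAA, the CCAAT box letters CCAAT and the GC box letters GGGCGG; matches of different motifs were allowed to overlap.
Col4a1 promoter: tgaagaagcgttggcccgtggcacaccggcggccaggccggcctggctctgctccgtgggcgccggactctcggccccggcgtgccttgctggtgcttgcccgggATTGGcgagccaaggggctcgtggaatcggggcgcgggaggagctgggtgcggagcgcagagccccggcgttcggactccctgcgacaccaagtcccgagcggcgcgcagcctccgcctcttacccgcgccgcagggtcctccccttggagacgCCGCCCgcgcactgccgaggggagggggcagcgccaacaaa
Col4a2 promoter: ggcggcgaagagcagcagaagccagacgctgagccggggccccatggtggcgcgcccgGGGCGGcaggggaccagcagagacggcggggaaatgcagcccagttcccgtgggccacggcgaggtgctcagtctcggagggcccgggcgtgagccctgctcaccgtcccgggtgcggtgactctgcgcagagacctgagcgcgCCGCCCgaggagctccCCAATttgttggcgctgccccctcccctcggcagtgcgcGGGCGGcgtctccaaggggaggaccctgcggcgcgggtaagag
Ltbp2 promoter: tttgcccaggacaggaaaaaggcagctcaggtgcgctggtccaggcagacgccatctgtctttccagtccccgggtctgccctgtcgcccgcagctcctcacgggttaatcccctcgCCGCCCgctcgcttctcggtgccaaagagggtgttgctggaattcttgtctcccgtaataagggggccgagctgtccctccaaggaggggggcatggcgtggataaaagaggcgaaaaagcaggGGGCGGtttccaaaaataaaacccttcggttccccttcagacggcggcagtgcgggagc
Islr promoter: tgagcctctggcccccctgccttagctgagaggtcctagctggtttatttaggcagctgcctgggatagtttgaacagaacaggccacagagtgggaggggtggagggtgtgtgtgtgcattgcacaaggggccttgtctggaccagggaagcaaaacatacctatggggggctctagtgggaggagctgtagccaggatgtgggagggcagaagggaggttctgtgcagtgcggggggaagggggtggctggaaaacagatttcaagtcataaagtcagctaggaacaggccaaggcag
Sned1 promoter: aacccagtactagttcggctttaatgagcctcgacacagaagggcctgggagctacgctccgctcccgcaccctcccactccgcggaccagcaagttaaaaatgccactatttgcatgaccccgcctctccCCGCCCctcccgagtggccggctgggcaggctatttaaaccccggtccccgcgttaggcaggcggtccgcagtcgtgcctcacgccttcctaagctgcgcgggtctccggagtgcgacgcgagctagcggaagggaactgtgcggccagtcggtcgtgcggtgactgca
Col25a1 promoter: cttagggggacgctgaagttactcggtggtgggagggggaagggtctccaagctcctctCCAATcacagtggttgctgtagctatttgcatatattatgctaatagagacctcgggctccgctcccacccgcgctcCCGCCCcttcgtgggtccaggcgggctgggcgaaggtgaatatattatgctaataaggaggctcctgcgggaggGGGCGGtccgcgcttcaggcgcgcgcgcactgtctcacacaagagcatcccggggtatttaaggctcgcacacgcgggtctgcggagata

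The Col4a1 window held 1 CCAAT and 1 GC box match and the Col4a2 window 1 CCAAT and 3 GC box matches, while the Islr window held none of the 3 motifs. RefSeq promoters were matched for 38 members, with 41 windows. TATAAA was present in 5 of the 41, against 13.6% of 32544 mouse promoters of the same length. CCAAT was present in 13 of 41, against 37.4%, and GGGCGG in 25 of 41, against 35.9%. Col4a3 and Spon2 are named without a sequence.

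After the low-count filter 44 members were tested among 16007 genes in the mixture experiment and 43 among 16249 in the single-drug experiment. Col10a1, Col13a1, Col28a1 and Col6a5 passed in neither, with highest values over all libraries of 0.471, 0.746, 0.207 and 0.653 CPM, and Col14a1 passed only in the mixture experiment, at no more than 0.617 CPM.

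**Figure D1:**
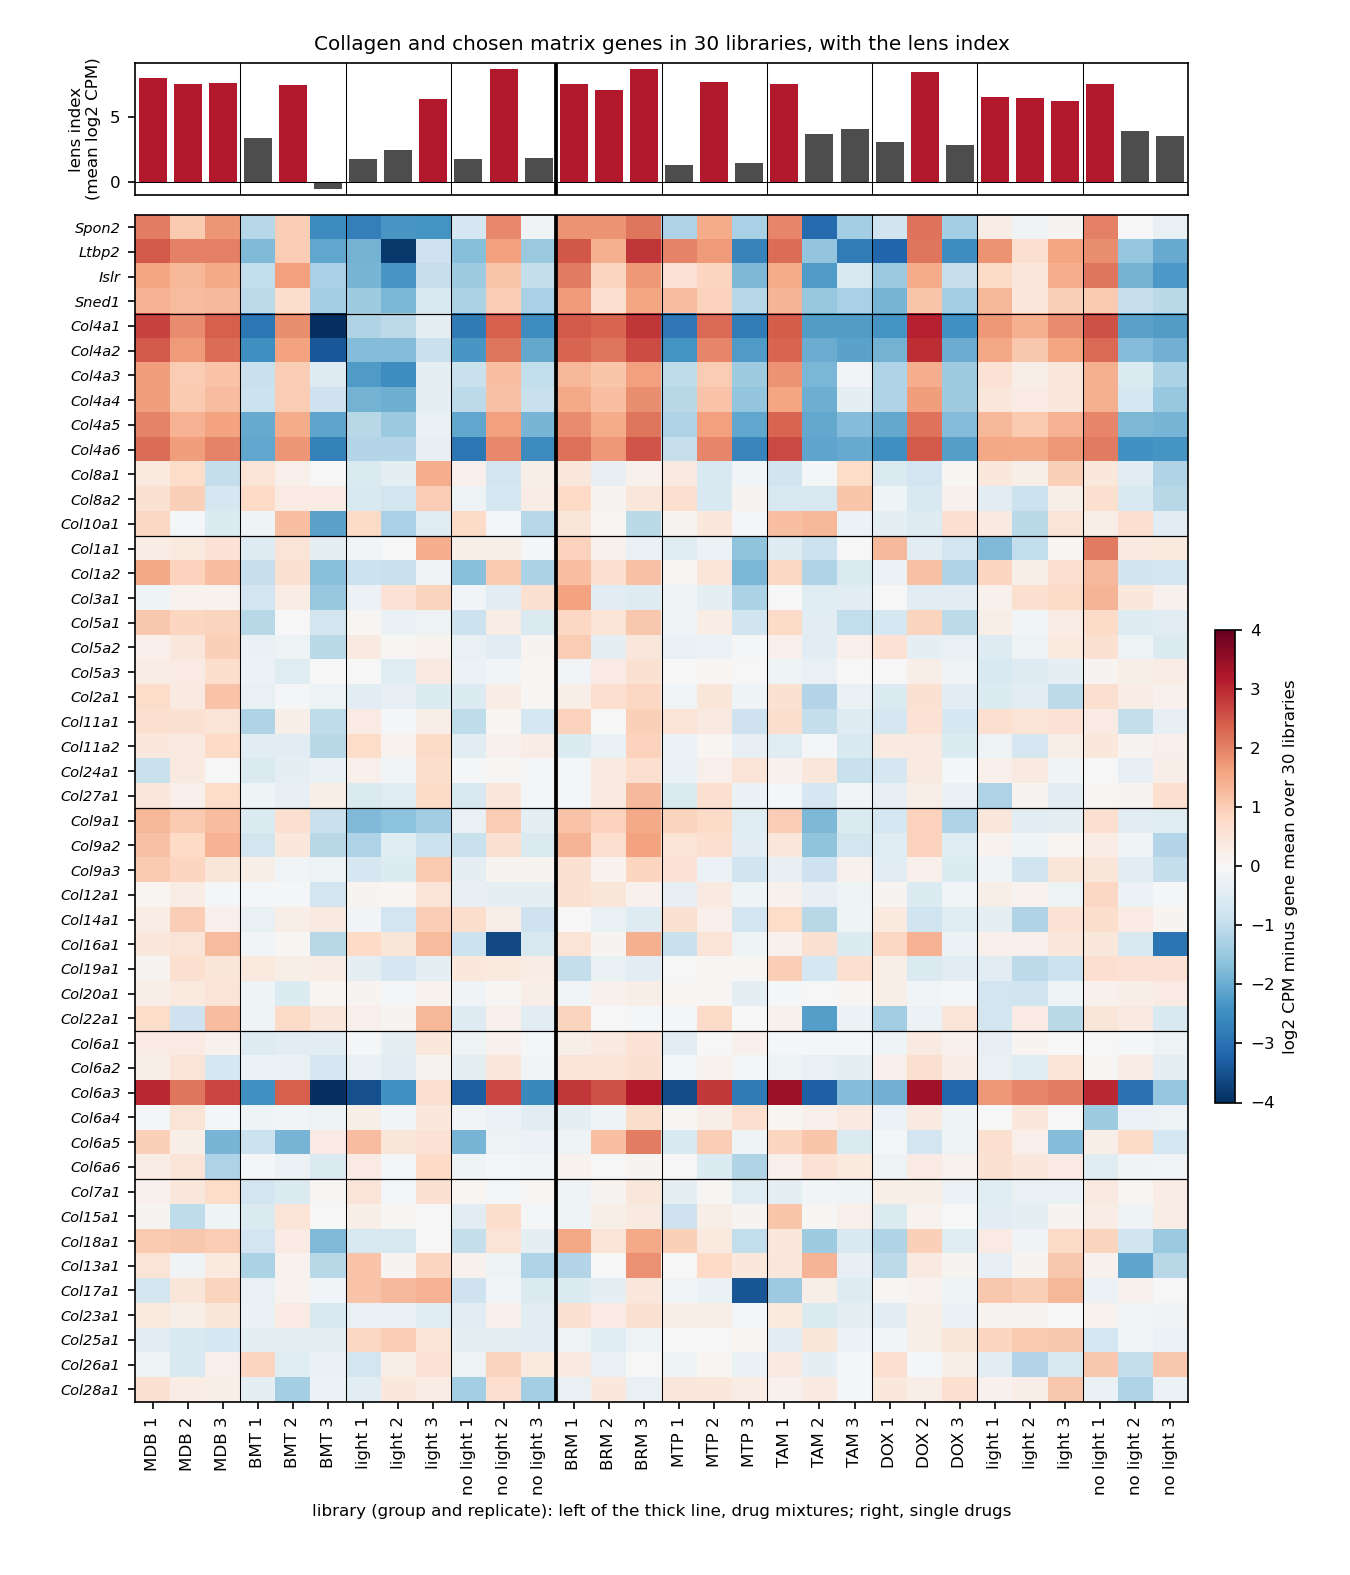
Rows are the 48 members and columns the 30 libraries, ordered by group; colour is log2 CPM minus the gene's own mean, and the bars above give the lens index of each library (log2 CPM, red where it exceeds 5). Type IV collagens, Col6a3 and the 4 non-collagen members are high under the red bars, which stand over all 3 MDB, BRM and single-drug light libraries and over 1 library of each other group. In mixture light replicate 3, also under a red bar, most of these genes are near or below their own means, and Col25a1 is high in the light groups instead.

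Type IV collagens differed widely between the libraries of a group. Col4a1, the alpha chain found in nearly all basement membranes, had 673, 377 and 535 CPM in MDB, 13.8, 375 and 5.8 CPM in BMT, 44, 49.9 and 78.5 CPM in light and 14.4, 540 and 18.1 CPM in no light libraries of the mixture experiment. In the single-drug experiment Col4a1 had 562, 519 and 749 CPM in BRM, 13.9, 488 and 14.6 CPM in MTP, 551, 21.8 and 21.6 CPM in TAM, 19.9, 869 and 19.2 CPM in DOX, 341, 272 and 379 CPM in light and 593, 23.1 and 21.6 CPM in no light. The no light library with the index of 8.73 lay inside the MDB range, and so nearly did the BMT library with the index of 7.48. Their group mates lay more than an order of magnitude lower. Over all 30 libraries, Col4a1 was 78.5 to 869 CPM in the 16 libraries with a high index and 5.8 to 49.9 CPM in the 14 with a low one.

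The same separation held for Col4a2, the usual partner of Col4a1, at 34.1 to 492 CPM against 6.08 to 19.3 CPM. It held for Col4a5 at 22.7 to 137 against 6.24 to 12.6 CPM, for Col4a6 at 8.49 to 67.7 against 1.42 to 5.59 CPM. It held for Col6a3 at 12.4 to 84.5 against 0.166 to 2.69 CPM. Col4a5 and Col4a6, like Col4a3 and Col4a4, encode type IV chains, and Col6a3 encodes the large chain of type VI collagen. These ranges describe libraries sorted by a measured value and are given without a test. Col4a3 and Col4a4 overlapped between the high and low libraries, through mixture light replicate 3 and TAM replicate 3. Col4a3 had 132, 84.8 and 92.6 CPM in MDB, 22.7, 83.4 and 29.5 CPM in BMT, 8.73, 7.43 and 32.8 CPM in light and 22.6, 97.2 and 21.1 CPM in no light libraries of the mixture experiment. It had 38.5 CPM in TAM replicate 3, whose index was 4.12. All MDB libraries exceeded all light libraries for Col4a3, and the BMT and no light groups each spanned most of that distance.

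Within each head-to-head type IV pair the ratio of the genes varied less than their levels. On the deposited FPKM scale, which corrects for transcript length and depth, the log2 ratio of Col4a1 to Col4a2 ran from -0.1 to 1.35 with a median of 0.79 over 30 libraries. That of Col4a3 to Col4a4, on chromosome 1 with 71 bases between the genes, ran from 0.08 to 0.95. That of Col4a5 to Col4a6, on chromosome X with 1308 bases between them, ran from 1.07 to 2.49. Col4a1 alone spanned 7.22 and Col4a2 6.33 log2 units of CPM over the same libraries. Col4a3 and Col4a4 spanned 4.27 and 3.81, and Col4a5 and Col4a6 4.45 and 5.53. In each pair the levels thus moved more than the ratio.

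Col6a3 had 65.2, 35.1 and 51.6 CPM in MDB, 1.45, 41.6 and 0.166 CPM in BMT, 0.658, 1.45 and 12.4 CPM in light and 0.762, 51.5 and 1.28 CPM in no light libraries of the mixture experiment. Its value of 0.166 CPM is 3 counts. Its partners in type VI collagen did not show this contrast. Col6a1 had 19.8, 20 and 17.7 CPM in MDB and 15.4, 12.1 and 21.4 CPM in light libraries. Col6a2 had 5.35, 6.35 and 2.71 CPM in MDB and 3.64, 3.2 and 4.73 CPM in light libraries. For both genes the groups overlapped.

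Spon2, a secreted spondin family protein, had 14.5, 7.22 and 11.8 CPM in MDB, 1.54, 6.93 and 0.552 CPM in BMT, 0.483, 0.648 and 0.617 CPM in light and 2.13, 13.3 and 3.14 CPM in no light libraries of the mixture experiment. In the single-drug experiment Spon2 had 12.2, 12.2 and 15.4 CPM in BRM, 1.46, 9.74 and 1.37 CPM in MTP, 13.5, 0.366 and 1.32 CPM in TAM, 1.99, 15.6 and 1.32 CPM in DOX, 4.26, 3.11 and 3.73 CPM in light and 14, 3.48 and 2.79 CPM in no light. The 3 MDB libraries were above all light libraries, and the no light and BMT libraries with a high index reached or neared the MDB range. The single-drug light libraries, with an index of 6.29 to 6.57, held less Spon2 than any other library with a high index in that experiment.

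Ltbp2, a latent TGF beta binding protein of microfibrils that is expressed by ciliary epithelium, had 19, 13.7 and 13.9 CPM in MDB, 0.953, 6.97 and 0.773 CPM in BMT, 0.878, 0.191 and 1.9 CPM in light and 1.01, 10.7 and 1.19 CPM in no light libraries of the mixture experiment. In the single-drug experiment Ltbp2 had 19, 9.11 and 25 CPM in BRM, 13.7, 11 and 0.49 CPM in MTP, 16.2, 1.1 and 0.439 CPM in TAM, 0.332, 15.1 and 0.566 CPM in DOX, 11.8, 5.33 and 10.2 CPM in light and 12.5, 1.11 and 0.79 CPM in no light. MTP replicate 1, with a lens index of 1.33, held as much Ltbp2 as libraries with a high index.

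Islr, a secreted leucine-rich repeat protein of mesenchymal cells, had 22.3, 18.8 and 21.5 CPM in MDB, 3.77, 23.6 and 3.04 CPM in BMT, 2.02, 1.45 and 3.96 CPM in light and 2.79, 16.2 and 3.86 CPM in no light libraries of the mixture experiment. Sned1, a matrix protein that carries nidogen, sushi, EGF and fibronectin modules, had 65.8, 60.1 and 61.2 CPM in MDB, 12.2, 40.5 and 9.72 CPM in BMT, 9.3, 6.98 and 16.3 CPM in light and 10.4, 50 and 10 CPM in no light libraries. For Sned1 the MDB libraries stood above all other mixture libraries, and the next highest values came from the no light and BMT libraries with a high index. In MTP, Islr had 11.2, 13.7 and 2.11 CPM and Sned1 59, 47.2 and 11.2 CPM, so replicate 1 again went with replicate 2.

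**Figure D2:**
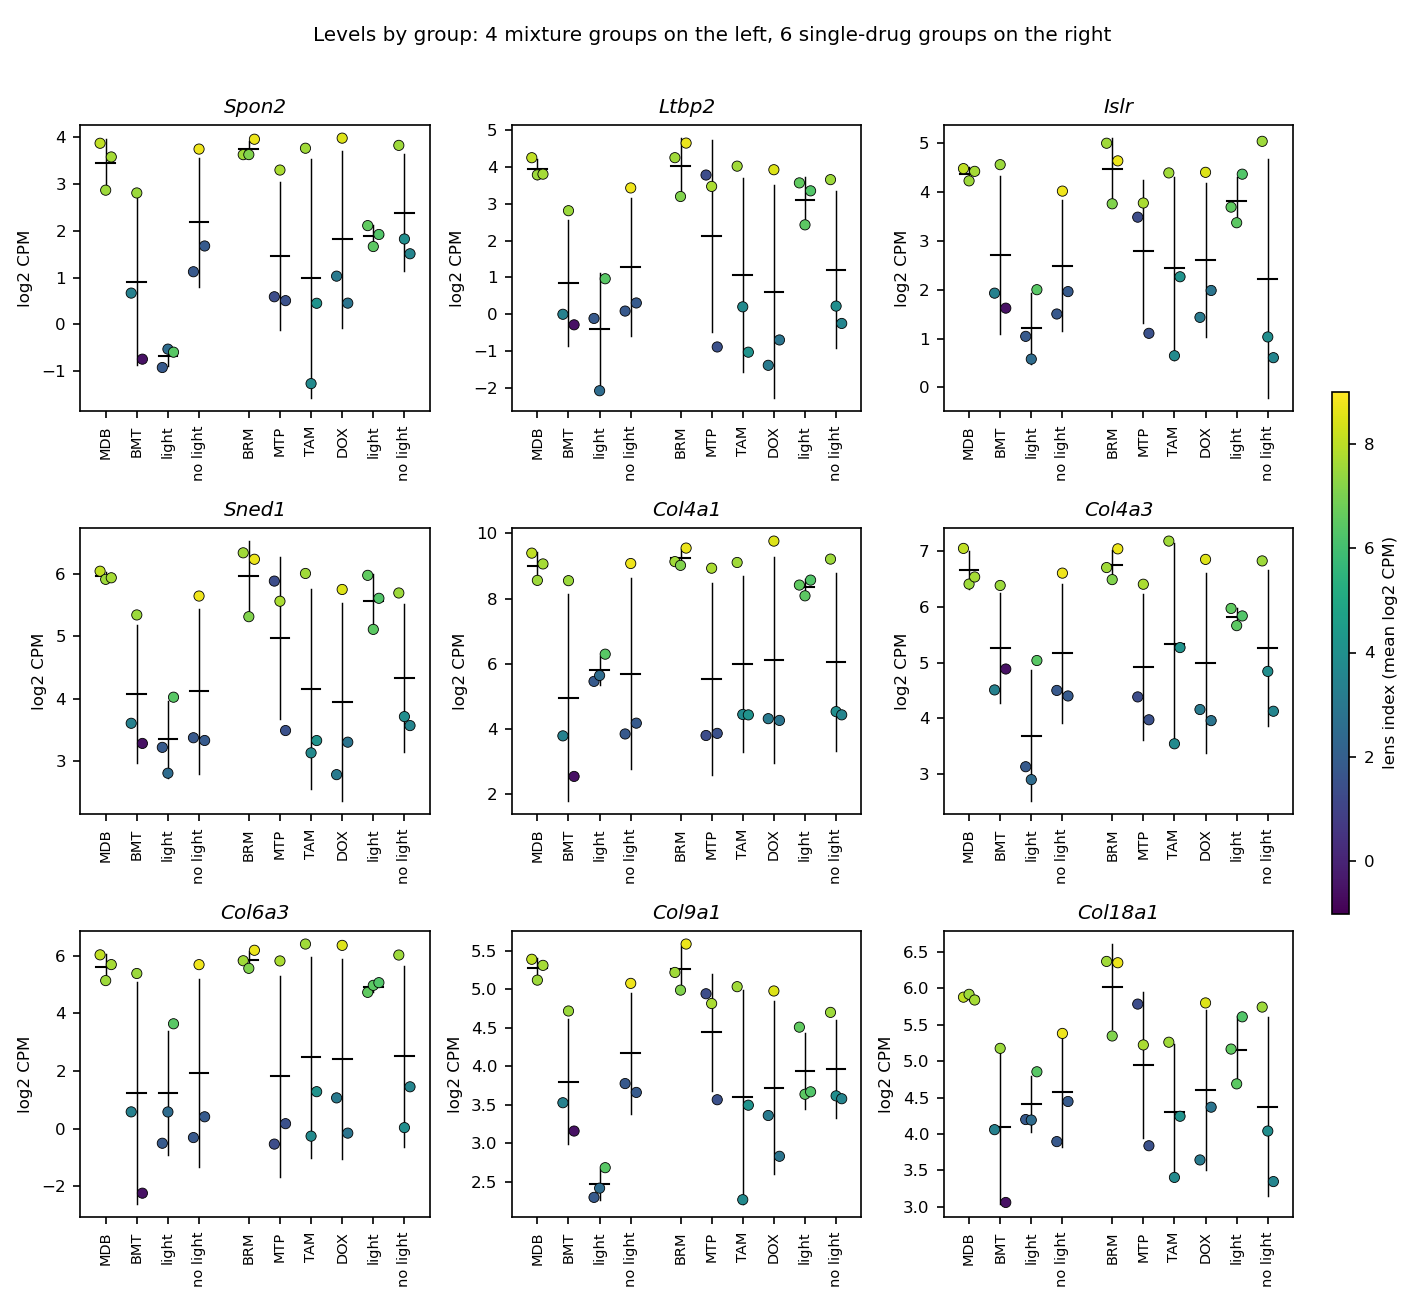
Each panel gives log2 CPM for 1 member (Spon2, Ltbp2, Islr, Sned1, Col4a1, Col4a3, Col6a3, Col9a1 and Col18a1) in all 10 groups. Points are libraries coloured by lens index, and bars give the mean ± SD of the log2 CPM of 3 libraries. Groups with 1 library of high index split into a high and a low point, as in the DOX group, where Col4a1 had 869 CPM in replicate 2 and 19.9 and 19.2 CPM in replicates 1 and 3.

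Vitreous and fibril collagens also differed between the libraries of a group. Col9a1, of the type IX collagen that coats vitreous fibrils, had 42, 34.7 and 39.7 CPM in MDB, 11.5, 26.3 and 8.89 CPM in BMT, 4.87, 5.3 and 6.38 CPM in light and 13.7, 33.8 and 12.6 CPM in no light libraries of the mixture experiment. Here every light library lay below every BMT and no light library, the low-index ones included. Its partner Col9a2 had 7.48, 5.74 and 8.73 CPM in MDB and 1.36, 2.33 and 1.8 CPM in light libraries. Col9a3 had 20.6, 18.1 and 13.8 CPM in MDB and 6.14, 6.71 and 20.7 CPM in light libraries, and the groups overlapped through light replicate 3.

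Col18a1, the precursor of endostatin, had 58.8, 60.4 and 57.2 CPM in MDB, 16.6, 36.1 and 8.29 CPM in BMT, 18.3, 18.2 and 28.9 CPM in light and 14.8, 41.6 and 21.8 CPM in no light libraries. Col2a1, the main vitreous fibril collagen, had 20, 15.3 and 26.2 CPM in MDB and 8.69, 9.45 and 8.18 CPM in light libraries. Col11a1, a minor chain of the same fibrils, had 8.45, 8.3 and 7.95 CPM in MDB and 6.85, 5.07 and 6.43 CPM in light libraries. The MDB libraries were above the light libraries for each of these 3 genes. Col1a2, a fibrillar chain of type I collagen, had 25, 16.1 and 19.9 CPM in MDB and 4.65, 4.5 and 7.67 CPM in light libraries. Its partner Col1a1 had 1.25, 1.33 and 1.5 CPM in MDB and 0.922, 0.991 and 2.83 CPM in light libraries, and the groups overlapped.

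Other fibrillar and network members differed little or went with single libraries. Col3a1 had 1.2, 1.49 and 1.5 CPM in MDB and 1.14, 2.06 and 2.57 CPM in light libraries. Col5a2 had 1.01, 1.23 and 1.75 CPM in MDB and 1.14, 0.915 and 0.978 CPM in light libraries. Col12a1, which binds fibril surfaces, had 11.4, 13.3 and 10.3 CPM in MDB and 11.6, 11.4 and 15.4 CPM in light libraries. For all 3 genes the groups overlapped. The type VIII genes Col8a1 and Col8a2 were highest among mixture libraries in light replicate 3, at 110 and 50.4 CPM. Light replicates 1 and 2 had 26.7 and 30.1 CPM for Col8a1 and 16.5 and 15.4 CPM for Col8a2. That library also had more of the pigment epithelium gene Rpe65, by 2.31 on the log2 scale, and of Ttr, by 2, than the mean of its group mates. Of the other listed pigment epithelium genes, Tyrp1 was higher by 1.37, Pmel by 1.16, Slc45a2 by 1.04 and Rlbp1 by 0.21. Best1 went the other way, at -0.83. The ciliary marker Slc4a5 was higher by 1.35. The part of these markers in the result was not tested.

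Set against light, MDB gave a median log2 fold change of 0.44 over the 44 members that passed the filter, beside 0 over all genes, with 30 of 44 above 0. In 21 of the 44 members every MDB library exceeded every light library, beside 16.5% of all genes tested, and in Col17a1 and Col25a1 every MDB library was lower, beside 16.8%. The members were chosen on this contrast, so nothing is read from these counts. Spon2 differed by 4.25 ± 0.93 on the log2 scale (SE; 11.2 ± 3.68 CPM in MDB and 0.583 ± 0.0879 CPM in light, SD, n = 3 each). Ltbp2 differed by 4.01 ± 1.11 (15.5 ± 2.97 CPM in MDB and 0.991 ± 0.862 CPM in light), Islr by 3.09 ± 0.85 and Sned1 by 2.53 ± 0.68. Col4a2 followed at 3.58 ± 1.36 (287 ± 74.1 CPM in MDB and 24.2 ± 8.55 CPM in light), Col6a3 at 3.43 ± 1.72 and Col4a1 at 3.20 ± 1.54. Col9a1 had a smaller difference and a smaller error, 2.82 ± 0.45. At the other end stood Col25a1 at -1.37 ± 0.12, Col17a1 at -0.95 ± 0.37 and Col3a1 at -0.46 ± 0.46.

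Lens, ciliary and rod markers moved with this contrast. All 3 genes of the lens index were higher in every MDB library than in every light library, with summed levels of 863 to 1300 CPM in MDB and 10.7 to 386 CPM in light. So were 5 of 7 other lens fibre genes, at 6840 to 8890 CPM in MDB and 149 to 3510 CPM in light. So were both lens epithelium genes, at 3.59 to 9.16 CPM in MDB and 0 to 1.08 CPM in light. The count was 4 of the 5 ciliary epithelium genes found, at 271 to 302 CPM in MDB and 111 to 154 CPM in light. Aqp1 had the highest median of these 5, 155 CPM in high-index and 153 CPM in low-index libraries. It differed by 1.28 ± 0.06, and by -1.05 ± 0.06 in light against no light of the mixture experiment. In MDB against light Optc differed by 3.5 ± 1.15, Wfdc1 by 1.46 ± 0.56, Zic1 by 0.93 ± 0.42 and Slc4a5 by 0.44 ± 0.34. The count was 3 of 7 fibroblast, sclera and choroid genes, at 98.6 to 129 CPM in MDB and 30.6 to 44 CPM in light. It was 0 of 5 endothelium genes, at 10.9 to 12.3 CPM in MDB and 13.8 to 19.2 CPM in light. It was 3 of 3 for the rod genes Gnat1, Nrl and Pde6b, at 16000 to 18600 CPM in MDB and 10200 to 12200 CPM in light. It was 2 of 5 astrocyte and Muller glia genes, at 1730 to 1820 CPM in MDB and 1010 to 1070 CPM in light. The part of these markers in the result was not tested.

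With the lens index as a covariate the median difference between MDB and light was 0.3, and with the lens index and a ciliary index (the mean log2 CPM of the ciliary markers) it was 0.13. The members above 1 on the log2 scale numbered 17 without a covariate, 10 with the lens index and 8 with both. Col4a1 differed by 0.10 with the lens index and -2.05 with both, Col6a3 by 0.69 and -0.33, and Col4a2 by 1.07 and -0.80. Spon2 differed by 2.74 and 2.07, Ltbp2 by 2.36 and 1.07, Islr by 1.74 and 0.49, and Sned1 by 1.40 and 0.64. Col9a1 stayed at 2.05 and 1.54 and Col25a1 at -1.33 and -1.45. In a mixture experiment with 12 libraries the lens index and the MDB group are partly confounded, since all 3 MDB libraries have a high index. The lens index did not overlap between MDB and light, at 8.04, 7.54 and 7.67 in MDB and 1.78, 2.49 and 6.4 in light. The ciliary index did not overlap between these groups either, at 4.97, 4.89 and 4.75 in MDB and 3.12, 3.13 and 3.66 in light. It includes Aqp1, which differed by -1.05 ± 0.06 in light against no light. Differences with the lens index alone, as with both indices, thus lie outside any range that MDB and light share. How much of the light response the covariates remove was not tested.

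Against the other mixture groups the members stood higher in MDB too. The median was 0.79 against no light and 0.85 against BMT, and it was 0.49 and 0.36 with the lens index as a covariate. Members above 1 on the log2 scale fell in number to 2 with the lens index, against 16 without it, for MDB against no light, and to 5, against 20, for MDB against BMT. The largest differences from no light were Col16a1 at 2.09 ± 0.60, Ltbp2 at 1.85 ± 0.97 and Col4a6 at 1.52 ± 1.20. The lowest were Col26a1 at -0.60 ± 0.48, Col15a1 at -0.44 ± 0.44 and Col25a1 at -0.19 ± 0.12. Those from BMT were Ltbp2 at 2.39 ± 0.99, Col4a2 at 2.02 ± 1.26 and Col4a1 at 2.00 ± 1.46. At the lower end were Col15a1 at -0.37 ± 0.44, Col26a1 at -0.35 ± 0.48 and Col25a1 at -0.21 ± 0.12.

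The light libraries of the mixture experiment had little Spon2 beside no light libraries as well. Light against no light gave -3.39 ± 0.92 for Spon2, -2.17 ± 1.08 for Ltbp2 and -2.09 ± 1.29 for Col4a2, with a median over members of 0.01. At the upper end it gave 2.20 ± 0.60 for Col16a1, 1.81 ± 0.39 for Col17a1 and 1.18 ± 0.11 for Col25a1. BMT against light gave 2.38 ± 0.92 for Spon2, 2.07 ± 0.84 for Islr and 1.64 ± 1.66 for Col6a3. At the lower end it gave -1.39 ± 0.37 for Col17a1, -1.21 ± 0.27 for Col11a2 and -1.21 ± 0.56 for Col16a1, with a median of -0.09. These contrasts share the light libraries with MDB against light and are given side by side with it, not as further support.

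Within groups of the single-drug experiment, which the rule did not use, 18 of 43 members increased with the lens index and 0 decreased (edgeR quasi-likelihood test, adjusted p under 0.05 over all genes), where 5.18% of 16245 genes increased and 0.363% decreased. With an index of Bfsp1, Lgsn and Grifin in its place, 8 members increased, and the share of all genes for that index is not given. Col6a3 had the largest slope, 1.14 ± 0.08 log2 CPM per unit of the index (SE, n = 18 libraries, edgeR adjusted p = 1.11e-07). It was followed by Col4a1 at 0.99 ± 0.06 (edgeR adjusted p = 2.35e-08), Col4a2 at 0.88 ± 0.06, Col4a6 at 0.85 ± 0.08 and Col4a5 at 0.75 ± 0.07. The index is itself a log2 level, so a slope of 1 is a change in proportion to the lens fibre genes. Col4a4 at 0.53 ± 0.05 and Col4a3 at 0.49 ± 0.05 had lower slopes than their 4 relatives.

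All 4 genes named in the rule beside the collagens increased with the index. Ltbp2 had a slope of 0.66 ± 0.16 (edgeR adjusted p = 0.0216), Spon2 0.59 ± 0.06 (edgeR adjusted p = 1.17e-05), Islr 0.50 ± 0.11 (edgeR adjusted p = 0.0127) and Sned1 0.39 ± 0.09 (edgeR adjusted p = 0.018). The Spon2 call remained without any single library. The Ltbp2 call was lost without DOX replicates 1, 2 or 3, no light replicates 1 or 3, or TAM replicate 1. The Sned1 call was lost without DOX replicate 2, no light replicate 1 or TAM replicate 1, and the Islr call without DOX replicate 2.

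Col1a2 at 0.33 ± 0.06, Col9a1 at 0.27 ± 0.06, Col5a1 at 0.25 ± 0.04, Col9a2 at 0.22 ± 0.05, Col11a1 at 0.19 ± 0.05, Col2a1 at 0.17 ± 0.03 and Col23a1, a transmembrane collagen, at 0.09 ± 0.02 completed the 18. Over 18 fits that each left out a library, the calls of Col11a1 and Col23a1 were lost in 16 and 15. Those of Col9a1 and Col9a2 were lost without DOX replicates 2 or 3, no light replicate 1 or TAM replicate 1, and that of Col2a1 without DOX replicate 2. The smallest slopes were those of Col8a1 at -0.06 ± 0.06, Col8a2 at -0.06 ± 0.08, Col25a1 at -0.04 ± 0.03, Col6a6 at -0.01 ± 0.06 and Col20a1 at -0.01 ± 0.02, none past the test. Col18a1 at 0.26 ± 0.08 (edgeR adjusted p = 0.0759), Col15a1 at 0.11 ± 0.05, Col12a1 at 0.07 ± 0.04, Col1a1 at 0.07 ± 0.11, Col3a1 at 0.06 ± 0.08, Col9a3 at 0.08 ± 0.06, Col6a1 at 0.04 ± 0.02, Col6a2 at 0.04 ± 0.03 and Col5a2 at 0.03 ± 0.07 did not pass either. The median slope of the 43 members was 0.11, beside 0 over all genes. Leaving out DOX replicate 2, the only library of high index in its group, lowered the count to 11 of the members.

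**Figure D3:**
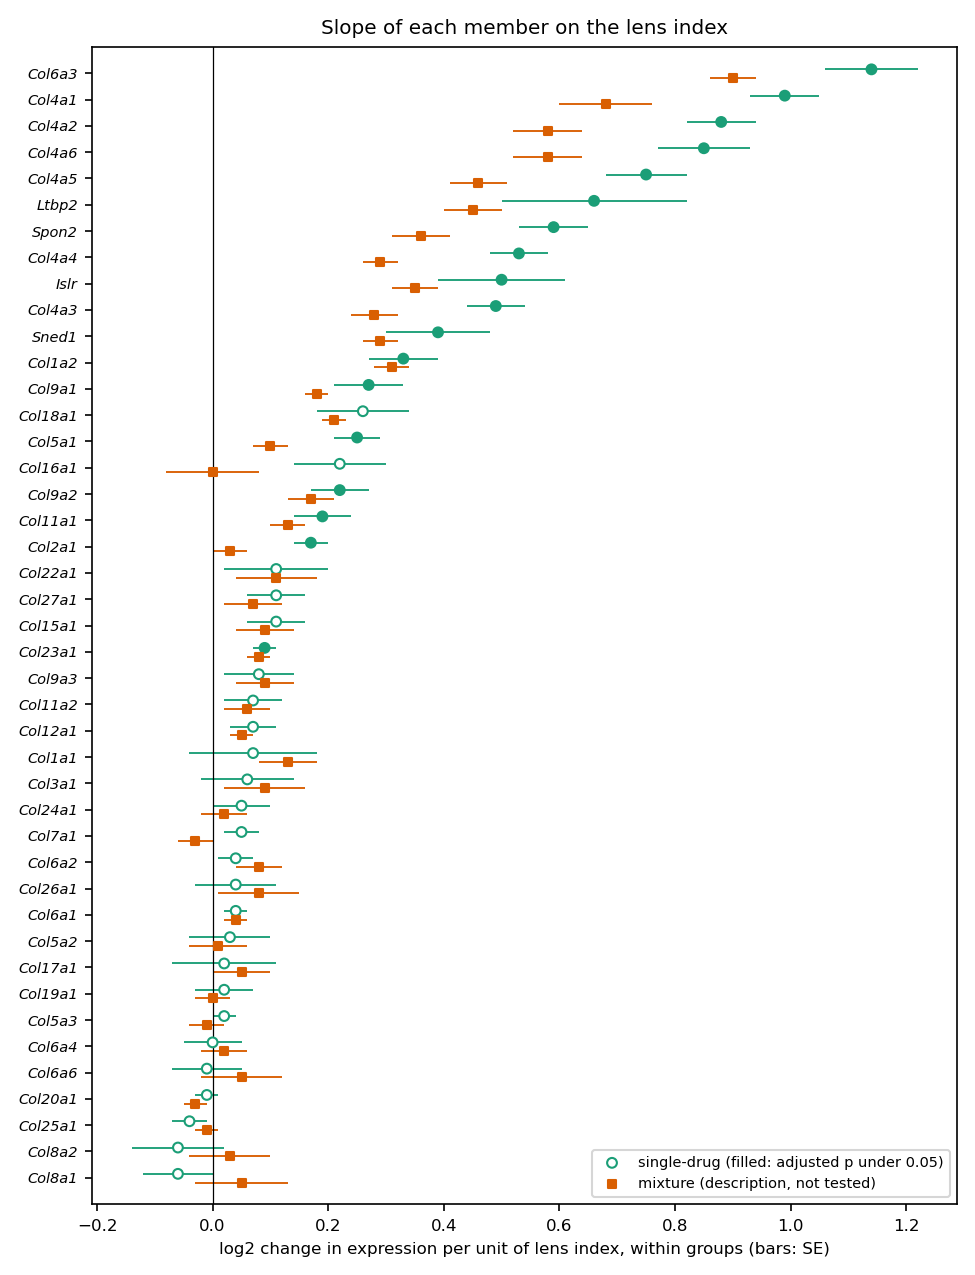
Slopes of 43 members against the lens index within groups (log2 CPM per unit of index, ± SE), as circles for the single-drug experiment, filled where the edgeR adjusted p is under 0.05, and as squares for the mixture experiment, given without a test. Col6a3, Col4a1, Col4a2, Col4a6 and Col4a5 have the 5 largest slopes in the single-drug experiment. The mixture slopes of Col6a3 and Col4a1 are 0.90 and 0.68.

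In the mixture experiment, described without a test, Col6a3 again had the steepest slope, 0.90 ± 0.04, followed by Col4a1 at 0.68 ± 0.08, and the median over members was 0.08. Ranks were counted in the 4 groups of the single-drug experiment that held exactly 1 library with a high index (MTP, TAM, DOX and no light). In all 4 that library was the highest of the 3 for 14 of 43 members, beside 6.93% of 16249 genes. These were Col1a2, Col2a1, Col4a1 to Col4a6, Col5a1, Col6a3, Col9a2, Col15a1, Islr and Spon2. The ranks and the slopes come from the same libraries.

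**Figure D4:**
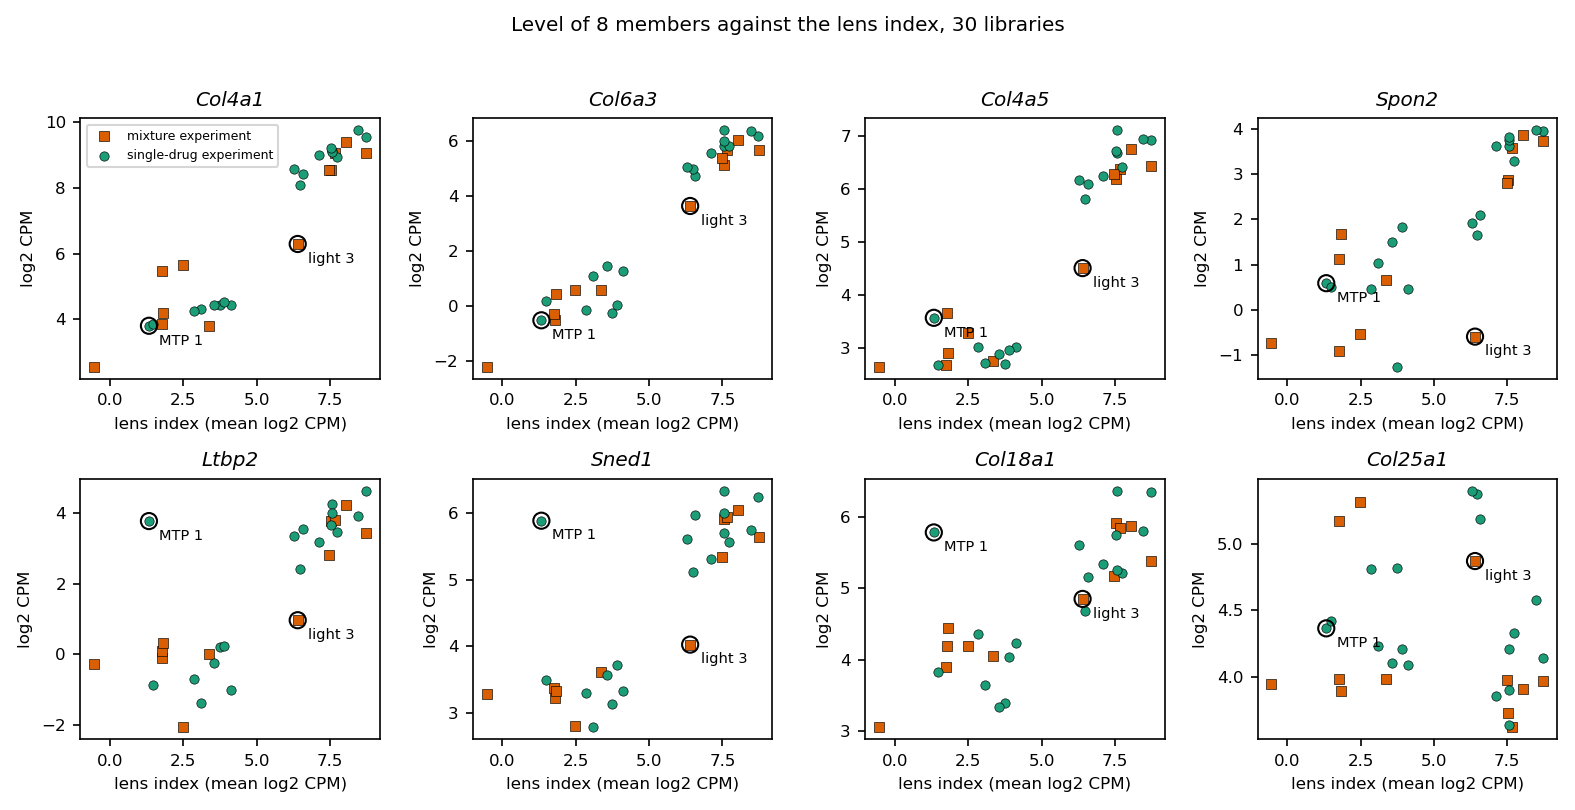
Log2 CPM of 8 members (Col4a1, Col6a3, Col4a5, Spon2, Ltbp2, Sned1, Col18a1 and Col25a1) against the lens index in 30 libraries, by experiment; circles mark MTP replicate 1 and mixture light replicate 3. The libraries fall into a low and a high cluster on the x axis, so no correlation is given, and MTP replicate 1 lies with the high cluster for Ltbp2 and Sned1 but with the low cluster for Col4a1 and Col6a3.

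A pair of libraries was chosen after their values were seen. MTP replicate 1 had a lens index of 1.33 and a ciliary index of 4.99, against 1.48 and 3.34 in MTP replicate 3. On the log2 CPM scale it exceeded replicate 3 by 4.67 for Ltbp2, 2.39 for Sned1 and 2.38 for Islr. It did so by 1.95 for Col18a1, 1.85 for Col1a2 and 1.38 for both Col9a1 and Col11a1, and by 3.3 for Col17a1, 1.72 for Col4a6 and 0.89 for Col4a5, along with 4.51 for Optc, a ciliary and vitreous proteoglycan. Col4a1 and Col4a2 differed by -0.06 and -0.13, Spon2 by 0.08 and Col6a3 by -0.71. The type IV genes were thus not alike in this library. It also held more of markers that are not ciliary. Fibroblast, sclera and choroid genes summed to 67.7 CPM in MTP replicate 1 and 35.8 CPM in replicate 3. Pigment epithelium genes summed to 838 and 608 CPM. Fmod was higher by 3.45, Ogn by 2.15 and Tyrp1 by 1.66, while Pdgfra differed by -0.24 and Pi16 by -1.05. What these markers contribute to the differences was not tested.

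Mixture light replicate 3 had a lens index of 6.4 and a ciliary index of 3.66, against 3.12 and 3.13 for the ciliary index in light replicates 1 and 2. It exceeded the mean of those replicates by 3.6 for Col6a3, 2.06 for Ltbp2, 2.02 for Col4a3, 1.19 for Islr and 1.01 for Sned1 on the log2 scale. The difference was 0.74 for Col4a1, 0.82 for Col4a2, 0.33 for Col9a1 and 0.13 for Spon2, with Mip higher by 5.46.

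With the lens and ciliary indices fitted together in the single-drug experiment, an alternative chosen after the data were seen, 8 members increased with the lens index (Col4a1 to Col4a6, Col6a3 and Spon2), beside 1.48% of genes. With the ciliary index 9 members increased (Ltbp2, Islr, Sned1, Col4a5, Col4a6, Col18a1, Col1a2, Col9a1 and Col11a1), beside 0.69% of genes. With either index 0 members decreased, beside 0.0185% of genes. Ltbp2 had a ciliary slope of 2.23 ± 0.23 (edgeR adjusted p = 0.000109), Islr 1.69 ± 0.18 and Sned1 1.38 ± 0.10, against a lens slope of 0.84 ± 0.08 for Col4a1 and 0.96 ± 0.12 for Col6a3. The split rests largely on MTP replicate 1. Without it Col4a1 was the only member called for the lens index, beside 0.217% of genes. Col18a1, Islr and Sned1 were the only members called for the ciliary index, beside 0.229% of genes. Calls over all genes fell as well, so the loss is not particular to the members.

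Bright light changed 7 of 43 members in the single-drug experiment. Col25a1, a transmembrane collagen of neurons, was higher and 6 members were lower (edgeR, adjusted p under 0.05), beside 11.4% of genes higher and 12.6% lower, so the share of lower members, 6 of 43, is near that background. Col25a1 had 36.3, 41.3 and 42.1 CPM in light and 12.4, 18.4 and 17.1 CPM in no light libraries, a log2 fold change of 1.32 ± 0.21 (edgeR adjusted p = 0.000455), and the groups did not overlap. The drug groups lay between or with the no light group. Col25a1 had 18.4, 14.4 and 17.6 CPM in BRM, 20.6, 20 and 21.4 CPM in MTP, 14.9, 28.1 and 16.9 CPM in TAM and 18.8, 23.8 and 28 CPM in DOX. All 12 lay below the 3 light libraries. In the mixture experiment it had 14.9, 13.2 and 12.3 CPM in MDB, 15.8, 15.7 and 15.4 CPM in BMT, 36, 39.7 and 29.2 CPM in light and 15.7, 15.6 and 14.8 CPM in no light libraries.

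Among the lower members, Col5a3, a fibrillar type V chain, had 107, 116 and 127 CPM in light and 177, 195 and 200 CPM in no light libraries (log2 fold change -0.71 ± 0.14, edgeR adjusted p = 0.00216). Col20a1 had 7.24, 6.83 and 10.4 CPM in light and 13.5, 14.5 and 15.2 CPM in no light libraries (-0.82 ± 0.16, edgeR adjusted p = 0.0023). Col19a1, a collagen of neurons and muscle, had 2.43, 1.55 and 1.78 CPM in light and 5.18, 4.88 and 4.85 CPM in no light libraries (-1.37 ± 0.34, edgeR adjusted p = 0.00898). For these 3 genes the groups did not overlap and the call remained without any single library. Col7a1, the anchoring fibril collagen, at -0.59 ± 0.19, Col26a1 at -1.43 ± 0.45 and Col1a1 at -1.96 ± 0.67 also passed, but each lost its call when single light or no light libraries were left out. The Col1a1 values were 0.255, 0.471 and 1.04 CPM in light and 4.33, 1.3 and 1.32 CPM in no light. The count of 7 was 4 without light replicate 1 or light replicate 2, and 3 on deposited FPKM per transcript.

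Markers of other cells moved with this comparison. Gnat1, Nrl and Pde6b were lower in every light library than in every no light library, with summed levels of 6720 to 8990 CPM in light and 21200 to 23200 CPM in no light. Of 5 astrocyte and Muller glia genes, 2 were higher and 3 lower in every light library, at 1090 to 1180 CPM in light and 1590 to 1900 CPM in no light. The ciliary genes summed to 134 to 174 CPM in light and 200 to 330 CPM in no light, with 1 of 5 lower in every light library. Aqp1 had the highest median of these 5, at 155 CPM in high-index libraries of both experiments. The lens index genes overlapped, at 395 to 521 CPM in light and 36.4 to 843 CPM in no light. The part of these markers in the result was not tested.

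The type IV genes and the 4 genes named in the rule did not pass in that comparison. The largest uncalled differences above 0 were 1.18 ± 0.55 for Col17a1 and 0.98 ± 1.47 for Col4a6. Spon2 was at -0.87 ± 1.09, Ltbp2 at 0.92 ± 1.37 and Sned1 at 0.93 ± 0.87. Without no light replicate 1, the library of that group with an index of 7.55, Ltbp2 differed by 3.24 and Islr by 3.06.

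**Figure D5:**
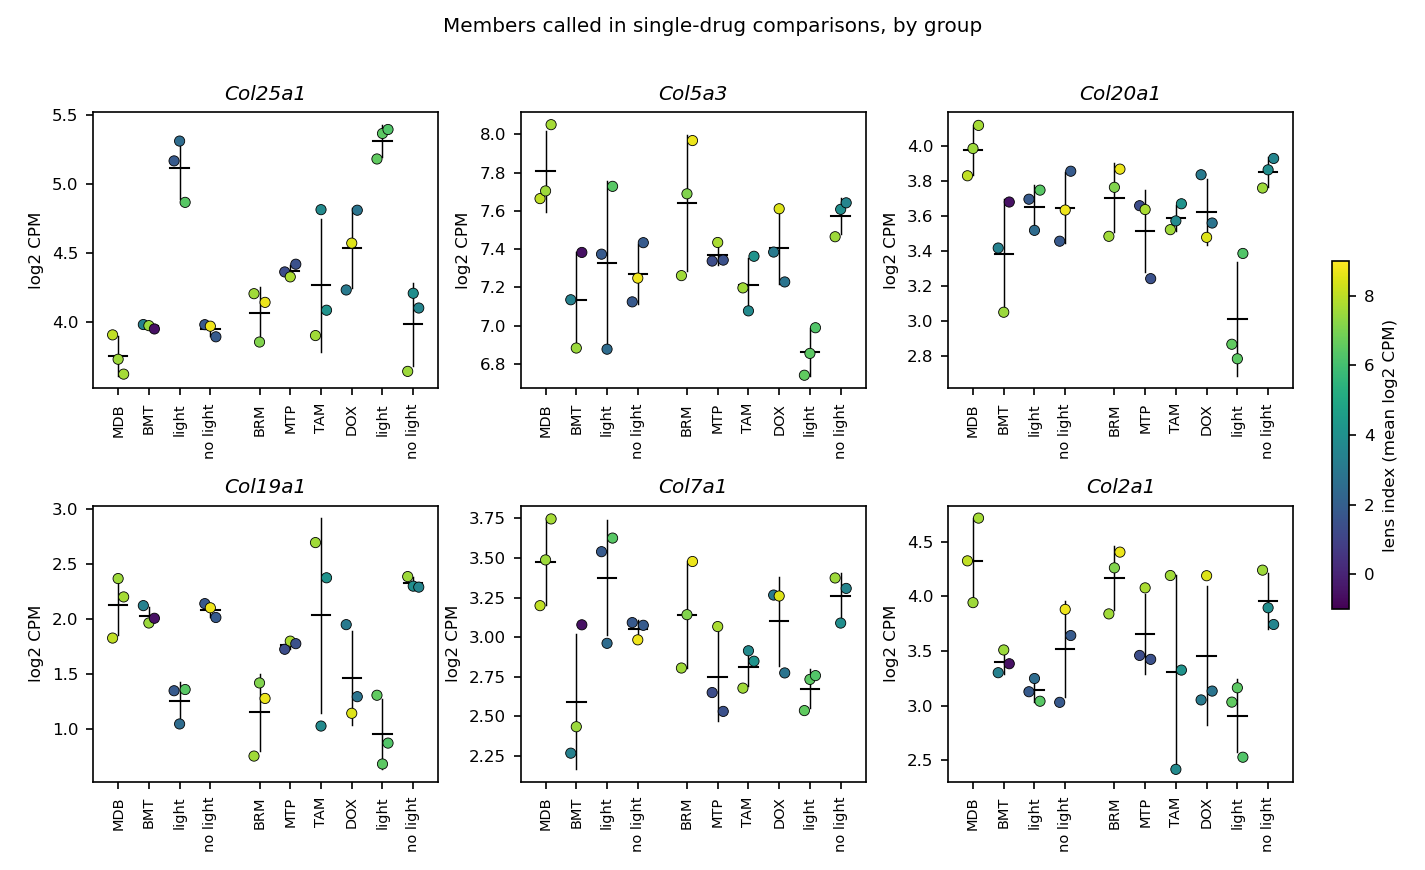
Log2 CPM of 6 members (Col25a1, Col5a3, Col20a1, Col19a1, Col7a1 and Col2a1) by group and experiment. Points are libraries coloured by lens index, and bars give the mean ± SD of the log2 CPM of 3 libraries. Col25a1 stands highest in both light groups, with 36.3 to 42.1 CPM in single-drug light and 12.4 to 18.4 CPM in single-drug no light libraries, whatever the colour of the points.

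BRM against light raised Col5a3, Col2a1 and Col20a1 and lowered Col25a1, beside 7.08% of genes higher and 7.32% lower. These were 4 of 43 members, near or below the shares of all genes in each direction. Col5a3 averaged 203 ± 48.5 CPM in BRM and 117 ± 10.1 CPM in light libraries (SD, n = 3 each), a log2 fold change of 0.80 ± 0.14 (edgeR adjusted p = 0.00279). Col2a1 averaged 18.2 ± 3.53 CPM in BRM and 7.58 ± 1.66 CPM in light (1.26 ± 0.38, edgeR adjusted p = 0.0382). Col20a1 averaged 13.1 ± 1.75 CPM in BRM and 8.16 ± 1.95 CPM in light (0.68 ± 0.16, edgeR adjusted p = 0.0137), and Col25a1 16.8 ± 2.11 CPM in BRM and 39.9 ± 3.14 CPM in light (-1.25 ± 0.21, edgeR adjusted p = 0.00219). In each of the 4 genes the libraries of the groups did not overlap. The count was 2 without BRM replicates 2 or 3 or light replicates 1 or 2, since Col2a1 and Col20a1 then lost their calls.

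Over all 43 members the median log2 fold change of BRM against light was 0.61, with 38 of 43 members above 0, beside a median of 0 over all genes. Members above 1 on the log2 scale numbered 7 without a covariate, 3 with the lens index and 1 with both indices. The lens index did not overlap between BRM and light, at 7.56, 7.11 and 8.72 in BRM and 6.57, 6.48 and 6.29 in light. The ciliary index includes Aqp1, which was itself called in this comparison. What the covariates remove was not tested. In 17 of 43 members every BRM library exceeded every light library, beside 19% of genes. Spon2 averaged 13.3 ± 1.82 CPM in BRM and 3.70 ± 0.574 CPM in light libraries. Its log2 fold change was 1.84 ± 1.10 (edgeR adjusted p = 0.289, spread estimated over all 6 groups). Col9a1 at 1.29 ± 0.62 and Col9a2 at 1.25 ± 0.51 did not pass, nor at the other end did Col17a1 at -1.25 ± 0.55, Col8a1 at -0.44 ± 0.41 and Col6a6 at -0.40 ± 0.33. When only the BRM and light libraries were fitted, 18 members were called, 16 higher and 2 lower. The share of all genes called in that fit is not given, so nothing is read from this count. The lens index genes were higher in every BRM library than in every light library as well, with summed levels of 712 to 1940 CPM in BRM and 395 to 521 CPM in light. So were 3 of 7 other lens fibre genes, at 4870 to 13000 CPM in BRM and 3120 to 5180 CPM in light, and 1 of 5 ciliary genes, at 252 to 333 CPM in BRM and 134 to 174 CPM in light. Among the ciliary genes Aqp1 was called, at 1.39 ± 0.19 (edgeR adjusted p = 0.000875). Optc at 0.68 ± 1.36, Slc4a5 at 0.47 ± 0.37, Zic1 at 0.4 ± 0.53 and Wfdc1 at 0.3 ± 0.59 were not. The rod genes Gnat1, Nrl and Pde6b were higher in every BRM library too, at 14100 to 17800 CPM in BRM and 6720 to 8990 CPM in light, and so were 2 of 5 astrocyte and Muller glia genes, at 1910 to 2070 CPM in BRM and 1090 to 1180 CPM in light. The part of these markers in the result was not tested.

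MTP against light raised Col5a3 (0.51 ± 0.14, edgeR adjusted p = 0.0323) and lowered Col25a1 (-0.95 ± 0.21, edgeR adjusted p = 0.00926) and Col17a1 (-1.92 ± 0.58, edgeR adjusted p = 0.0468), beside 5.37% of genes higher and 4.91% lower. Col17a1, a hemidesmosome collagen of epithelia, had 0.931, 0.844 and 0.049 CPM in MTP and 2.21, 2.03 and 2.61 CPM in light libraries. Its call remained in only 2 of 18 fits that each left out a library. The MTP count was 1 without light replicates 1 or 2 or MTP replicate 2, and 1 on deposited FPKM. TAM against light raised Col19a1 (1.22 ± 0.35, edgeR adjusted p = 0.0343) and Col20a1 (0.55 ± 0.17, edgeR adjusted p = 0.0439) and lowered Col25a1 (-0.99 ± 0.21, edgeR adjusted p = 0.00723), beside 6.6% of genes higher and 4% lower. The TAM count was 0 without TAM replicate 3 and 1 without TAM replicate 1 or light replicate 2, or on deposited FPKM. DOX against light raised Col20a1 (0.60 ± 0.16, edgeR adjusted p = 0.031) and Col5a3 (0.55 ± 0.14, edgeR adjusted p = 0.0221) and lowered Col25a1 (-0.76 ± 0.21, edgeR adjusted p = 0.0284), beside 6.79% of genes higher and 5.06% lower. The DOX count was 0 without DOX replicate 1 or light replicates 1 or 2, and 1 without DOX replicate 2. MTP, TAM and DOX each had 3 of 43 members called, near or below the shares of all genes in each direction.

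The medians over members were -0.05 for MTP, -0.16 for TAM and -0.10 for DOX. The largest uncalled differences from light were Col19a1 at 0.80 ± 0.34, Col2a1 at 0.76 ± 0.38 and Col3a1 at -1.12 ± 0.53 in MTP. They were Col15a1 at 0.75 ± 0.39 and Col17a1 at -1.57 ± 0.57 in TAM, and Col26a1 at 1.07 ± 0.45, Col17a1 at -1.15 ± 0.55 and Sned1 at -1.05 ± 0.87 in DOX. The 4 drug comparisons share their light libraries, so a gene that recurs among them, such as Col25a1, is not seen independently in each. Cell markers differed in these comparisons too. The rod gene Nrl was at 1.28 ± 0.18 in MTP, 1.39 ± 0.18 in TAM and 1.11 ± 0.18 in DOX. Of the glial genes, Glul was at 1.66 ± 0.27, 1.35 ± 0.27 and 1.19 ± 0.26, and Slc1a3 at -0.62 ± 0.16, -0.64 ± 0.17 and -0.69 ± 0.16. Whether they bear on the collagen differences was not tested.

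BMT against no light, in the mixture experiment, changed 0 of 44 members at an edgeR adjusted p under 0.05, beside 0% of 16007 genes in either direction. At an unadjusted p under 0.05 edgeR listed 2 members, Col6a1 and Col11a2, and 6.3% of genes. limma voom called 0 genes after adjustment and listed 1 member unadjusted, and DESeq2 called 0 members and 12 genes after adjustment and listed 2 members unadjusted. The median over members was -0.16, and the ends were Col16a1 at 0.99 ± 0.61, Col22a1 at 0.65 ± 0.56 and Col8a2 at 0.64 ± 0.49 above 0. Below 0 they were Spon2 at -1.01 ± 0.79, Col11a2 at -0.67 ± 0.28 and Col3a1 at -0.56 ± 0.48.

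Genes that make, bind or cut collagen were examined as further lists. With the lens index in the single-drug experiment, 11 of 19 basement membrane partners increased, led by Nid1 at 1.17 ± 0.08 and Hspg2 at 0.97 ± 0.07, which encode nidogen and perlecan, the linkers of the type IV network. So did 11 of 22 genes of collagen biosynthesis and cross-linking, 14 of 25 of microfibrils and interstitial matrix, such as Optc at 0.69 and Ogn at 0.73, 4 of 6 collagen receptors, 2 of 11 TGF beta genes and 1 of 7 collagenases and inhibitors. None of these lists held a gene that decreased, and 5.18% of all genes increased. The median slopes were 0.20 for basement membrane partners, 0.14 for biosynthesis and 0.15 for interstitial matrix, beside 0.11 for the members and 0 over all genes.

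In light against no light of the single-drug experiment, the collagenase list had 4 of 7 genes higher and 0 lower, among them the inhibitor Timp1 at 4.91 ± 0.81 (edgeR adjusted p = 0.000583) and the protease Mmp3 at 3.12 ± 0.86. Biosynthesis and cross-linking had 5 of 22 higher and 0 lower, with Loxl4 at 2.5 ± 0.52 and P4ha3 at 2.48 ± 0.56, a lysyl oxidase and a prolyl hydroxylase subunit. The TGF beta list had 2 of 11 higher, with its secreted target Tgfbi at 2.53 ± 0.48. Over all genes 11.4% were higher. BRM against light lowered 3 of 7 in the collagenase list (Mmp3, Timp1 and Mmp14) and 2 of 22 in biosynthesis (Loxl4 and Pcolce2), and raised none in either, beside 7.32% of all genes lower. In MTP, TAM and DOX the biosynthesis list had 3, 4 and 2 genes lower and the collagenase list 4, 2 and 2, with none higher, beside 4.91%, 4% and 5.06% of all genes lower. The 2 of 22 in BRM and in DOX are near these shares.

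In the authors' deposited tables of called transcripts, which list 521 transcripts for the mixture experiment and 622 for the single-drug experiment, a Col25a1 transcript and a Col9a1 transcript appear among the members described here. The authors' deposited table for the mixture experiment gives the Col9a1 transcript log2 fold changes against light of 2.91 in MDB, 1.48 in BMT and 1.75 in no light (adjusted p = 0.0384 over the contrasts, limma). For the Col25a1 transcript the authors' deposited table for the mixture experiment gives -1.43 in MDB, -1.06 in BMT and -1.10 in no light. The authors' deposited table for the single-drug experiment gives the Col25a1 transcript -1.29 in BRM, -1.13 in MTP, -1.08 in TAM, -0.849 in DOX and -1.37 in no light.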

How the data were processed

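Whole tissue labelled neural retina was measured by stranded mRNA sequencing in 30 libraries. Per the submitters' processing notes, the tools were Trimmomatic, Bowtie2, TopHat2, eXpress, edgeR and limma, with the build GRCm38.p3. The authors deposited expected counts per transcript (eXpress effective counts), FPKM values per transcript, and tables of called transcripts with log2 fold changes and an adjusted p-value. Expected counts of 102906 transcripts were summed per gene and rounded. Genes were filtered with filterByExpr, scaled by TMM and tested with edgeR 4.0.16 (R 4.3.3, quasi-likelihood, Benjamini-Hochberg adjusted p under 0.05 over all genes), with all groups of an experiment in 1 fit and a standard error of the fold change from the F statistic. CPM use the TMM library sizes; log2 CPM in the indices add a prior count of 1. The lens index slope was fitted within groups. DESeq2 1.42.0, limma voom (limma 3.58.1), RLE scaling, no filter, FPKM with a pseudocount of 1, covariates, a replicate block and leaving out each library were alternatives. Scripts were tested on simulated counts. Members, indices and lists were chosen with earlier results of these data known. Named were Spon2, Ltbp2, Islr, Sned1, the collagens of set families, the 3 largest rises and falls per comparison, and the 5 largest and smallest slopes. All count columns were matched to a sample (0 without one). Cpamd8, a listed ciliary marker, was not matched, and 2 listed markers are not reported here.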

Additional observations from a re-analysis of the deposited data

How the results depend on the processing

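The count of members increasing with the lens index was 18 and became 8 with the ciliary index added or with an index of Bfsp1, Lgsn and Grifin. The BRM count was 4 and became 18 when only the groups compared were fitted, and the TAM count of 3 became 0. The shares of all genes called in those fits, and with the Bfsp1, Lgsn and Grifin index, are not given. On deposited FPKM per transcript the counts were 3 for light against no light (7 on gene counts), 1 for MTP and 1 for TAM (3 each on gene counts). The median of MDB against light was 0.3 with the lens index and 0.13 with both indices, that of MDB against no light 0.49 and 0.3, and that of MDB against BMT 0.36 and 0.26. MDB and light libraries did not overlap in either index. Leaving out 1 library each, the counts ran from 11 to 19 for the slope, 4 to 8 for light against no light, 2 to 5 for BRM, 1 to 4 for MTP, 0 to 4 for TAM and 0 to 4 for DOX, and stayed at 0 for BMT against no light. The medians ran from 0.29 to 0.83 for MDB against light (highest without light replicate 3), -0.45 to 0.24 for BMT against light, -0.42 to 0.26 for light against no light in the mixture experiment, 0.57 to 0.85 for MDB against no light, 0.71 to 0.96 for MDB against BMT and 0.07 to 0.12 for the mixture slope. Fold changes that did not pass and changed sign without 1 library ran, for BMT against no light, from -1.16 to 1.62 for Islr, -2.3 to 1.42 for Ltbp2, -1.1 to 1.04 for Sned1 and -2.53 to 0.21 for Spon2; for light against no light from -0.25 to 3.06 for Islr and -1.24 to 0.24 for Spon2; for MTP from -0.67 to 0.44 for Ltbp2, -0.74 to 0.12 for Sned1 and -1.39 to 0.6 for Spon2; and for Spon2 from -1.16 to 1.28 in DOX and -2.17 to 0.97 in TAM. The cause of these shifts was not tested. Replicate numbers were not treated as pairs. The lowest correlation of deviations between same-numbered libraries was -0.22 in the mixture and -0.26 in the single-drug experiment. The highest was 0.56 and 0.44, and 2 of 18 and 13 of 45 exceeded 0.1. Differently numbered libraries were not compared in this way, so these values cannot settle whether the numbers pair the libraries. With a replicate block the counts were 6 for light, 5 for BRM, 2 for MTP, 2 for TAM, 3 for DOX, 19 for the slope and 0 for BMT against no light, the median of MDB against light was 0.48, and Spon2 in MTP against light was -0.08. Depth limits members under 1 CPM, where a library holds few counts, and 3 libraries a group leave wide errors wherever a group mixes high and low lens index.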
